A study of Mus musculus with 9 samples.

Results

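The respiratory chain of mitochondria is built from subunits of separate origin, most of them encoded in the nucleus and a few in the small circular genome that mitochondria keep. The rows of the deposited count and FPKM tables with the symbols COX1, COX2, COX3, ND1, ND2, ND4, ND5, ND6, CYTB and ATP6, written in capitals, were followed here. They were picked out by symbol and not by a cut on measured values, though with earlier results of these data known, and are 10 of the 40879 symbols in each table. COX1 and COX2 in this naming are cytochrome c oxidase subunits and not the cyclooxygenases, whose mouse genes are Ptgs1 and Ptgs2. The RNA came from spinal cord of male mice and was sequenced as 9 libraries, 3 labelled SNI+LDN193189, 3 labelled SNI and 3 labelled sham. In pain research SNI means spared nerve injury, a model that severs some branches of the sciatic nerve and spares another. LDN193189 blocks the kinases of BMP receptors such as ACVR1, and by their label the SNI+LDN193189 animals had both the injury and the compound. All 3 groups share the tissue, the sex, selection of RNA by its poly(A) tail and strand-marked libraries read as 150-base pairs. The sources used here gave no strain, genotype or age, no cord segment, no interval since the injury, and no dosing of the compound.

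Totals ran from 33432776 to 37190467 counts per library. Replicates are biosamples in the labels, which do not say that each is another animal, so a p-value here covers no more than the spread of these libraries. The column letters L, N and S were read as LDN193189, SNI and sham. Were S and N exchanged, SNI against sham would point the other way, and what is given for SNI+LDN193189 against SNI would hold against sham. Markers of spinal cord cells were present, with summed levels of 10041 to 11438 CPM (counts scaled to 1000000 per library) for 14 neuronal genes, 25126 to 28845 CPM for 10 oligodendrocyte genes and 6215 to 7179 CPM for 10 astrocyte genes. The microglial gene P2ry12 was listed at 0, which need not mean absent RNA. Of protein-coding genes wholly inside another gene, 70.3% (opposite strand) and 71.2% (same strand) were at 0 in all libraries, against 12.0% without an overlap. Whether this applies to P2ry12 was not tested. The 10 microglial genes summed to 411 to 462 CPM in SNI+LDN193189, 373 to 443 in SNI and 326 to 373 in sham. That sum did not overlap between SNI+LDN193189 and sham, in a comparison where 13.6% of all single genes were apart. The 13.6% is of single genes and so is not a like measure for a sum. Of the 9 microglial genes tested for a group difference, 0 passed the threshold given below in any comparison. Markers of neighbouring tissue differed between libraries. The 10 Schwann cell and nerve root genes summed to 840 to 1998 CPM in SNI+LDN193189, 337 to 966 in SNI and 944 to 6551 in sham, and the 12 skeletal muscle genes to 1006 CPM in replicate 1 of sham and to 121 or less in the rest. Their part in the values below was not tested. In bulk tissue, fewer cells of a type and less RNA per cell cannot be told apart.

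Mitochondrial DNA is transcribed from both strands as long precursors, which are cut mainly at the tRNAs that lie between the coding genes. Most of the coding pieces then receive short poly(A) tails, so a poly(A) selection can keep them. Complexes I, III and IV pass electrons from NADH to oxygen and pump protons, and complex V, the ATP synthase, uses the proton gradient. The 10 genes are the mitochondrially encoded subunits ND1, ND2, ND4, ND5 and ND6 of complex I, CYTB of complex III, COX1, COX2 and COX3 of complex IV, and ATP6 of complex V. The tables also held ND3, ND4L and ATP8, which makes 13 mitochondrial protein-coding rows, and the mitochondrial rRNAs mt-Rnr1 and mt-Rnr2.

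The genes are packed with almost no spare bases, and the tail is part of some of them. COX3, ND4 and CYTB end with 1 base beyond their last whole codon, a T, and in mitochondria the added A residues turn such an end into the stop codon. The last 30 bases of each (chrM:9361-9390, chrM:11515-11544 and chrM:15259-15288, plus strand, GRCm38) are given to show this, with the lone base in capitals.
COX3 3' end: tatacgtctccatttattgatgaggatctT
ND4 3' end: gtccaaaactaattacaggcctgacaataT
CYTB 3' end: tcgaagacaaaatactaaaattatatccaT
The other 7 genes end in a whole stop codon. The start codon was ATG in 7 of the 10, and it was GTG in ND1, ATA in ND2 and ATC in ND5.

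The 10 genes fell into an abundant and a scarce class that did not meet. COX1, CYTB, ND1, ND2, ND5, ND4 and ND6 averaged 2919 to 15942 FPKM over the 9 libraries, where FPKM is the count per kilobase of gene and per 1000000 counts. COX3, COX2 and ATP6 averaged 9.74, 6.72 and 4.73 FPKM, although they are cut from the same precursor as their neighbours. The lowest of the abundant class, ND6, stood 299.7-fold above the highest of the scarce class, COX3. Counts of ND6 may hold reads from either strand of its stretch, as described below, so its place in the abundant class is uncertain. The scarce 3 are also the genes whose sequence is repeated almost whole in the nuclear genome, so their counts are uncertain. How reads that match several places were handled was not given in the sources used here, and its part in these levels was not tested.

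The repeat is a block of pseudogenes on chromosome 1 at chr1:24611535-24616197 on the minus strand, 4663 bases long, in the GENCODE M21 annotation of GRCm38. It holds 7 annotated pseudogenes and touches 5 of the 10 genes. COX2 matched Gm28661 over 681 of its 684 bases, COX3 matched Gm28437 over 783 of 784 and ATP6 matched Gm10925 over 678 of 681, each without a mismatch. To show the identity, the start of COX2 (chrM:7013-7072, plus strand) and of its copy (chr1:24615506-24615565, minus strand) are given, 60 bases each from the GENCODE transcripts.
COX2: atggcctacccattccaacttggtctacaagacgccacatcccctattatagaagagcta
Gm28661: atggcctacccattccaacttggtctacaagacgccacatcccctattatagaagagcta
No letter is in capitals, because none differs. A read of 150 bases lying inside the 681 matched bases cannot be assigned to the mitochondrion by its sequence.

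COX1 was repeated in part. Its last 483 bases matched Gm29216 of the same block with 1 difference, and its whole length matched Gm13340 on chromosome 2 with 37 differences over 1545 bases. The 90 bases at chrM:6390-6479 (plus strand) are set beside those copies at chr1:24616099-24616188 and chr2:22588496-22588585 (both minus strand) to show how few letters separate the loci.
COX1: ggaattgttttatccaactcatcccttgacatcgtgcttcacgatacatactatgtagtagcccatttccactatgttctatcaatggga
Gm29216: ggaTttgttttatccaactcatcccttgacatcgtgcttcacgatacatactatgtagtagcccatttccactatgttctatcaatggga
Gm13340: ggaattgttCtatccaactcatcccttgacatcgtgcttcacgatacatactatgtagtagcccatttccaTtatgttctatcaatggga
Capitals mark the bases that differ from COX1. No row of Gm13340 or of the 7 pseudogenes of the block was analysed here. Of a list of 12 nuclear copies of mitochondrial genes, 1 had a row in the deposited tables, and it was none of the copies described.

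Each gene was cut into all its windows of 150 bases, the read length, and the share of windows with an exact match in an annotated nuclear transcript was counted. This share was 99.8% for COX3 (634 of 635 windows), 99.4% for COX2 (532 of 535) and 99.4% for ATP6 (529 of 532). It was 59.2% for ND4 (727 of 1229) and 23.6% for COX1 (330 of 1396), and 0 for ND1, ND2, ND5, ND6 and CYTB. ND3 and ND4L, which lie inside the same block, had shares of 97.0 and 98.0% and averaged 65.1 and 5.74 FPKM. So all 5 genes with a share of 97.0% or more stood at 65.1 FPKM or less, and the 7 genes of the abundant class had a share of 59.2% or less. ATP8 departed from this order, at 1.41 FPKM and a share of 0 of 55 windows. It lies between the copies of its neighbours, and the search covered annotated transcripts and not the whole nuclear genome.

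**Figure D1:**
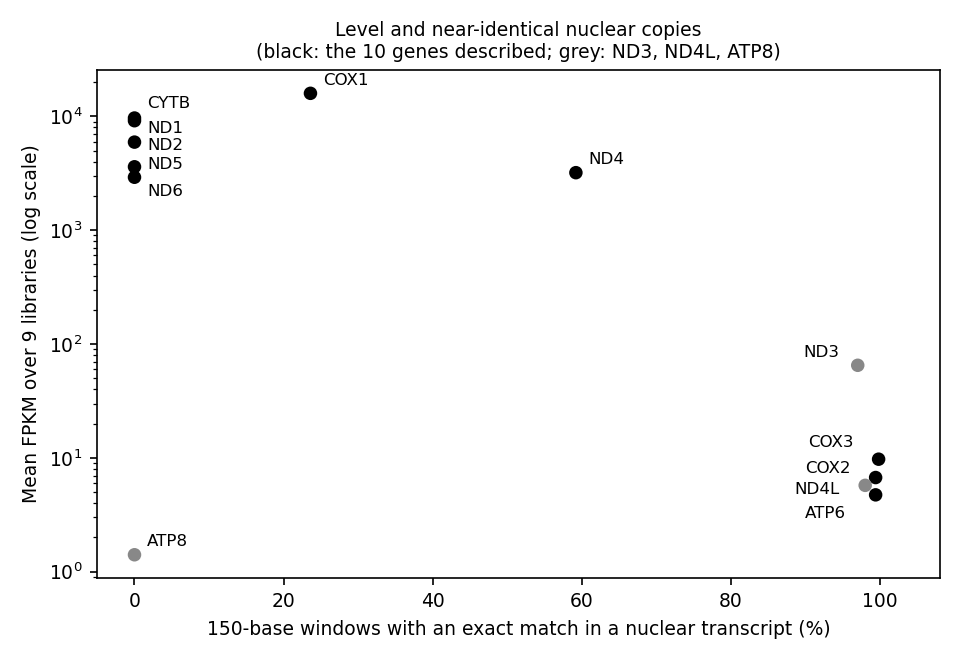
Each point is a mitochondrial protein-coding gene, placed by the share of its 150-base windows with an exact match in a nuclear transcript (horizontal axis, percent) and its mean FPKM over 9 libraries (vertical axis, log scale). COX2, COX3 and ATP6 (black) sit at the lower right at 4.73 to 9.74 FPKM, the other 7 genes described sit at 2919 FPKM or more, and ATP8 (grey) is at the lower left.

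COX1 and ND4 had bases both inside and outside the near-identical copies. Divided by the 1062 bases outside alone, COX1 stood at 23177 ± 1329 on the same scale (SD, n = 9) in place of 15942 FPKM. ND4 over its 502 outside bases stood at 8784 ± 422 in place of 3202. These are upper values for the level per length, since they assume that every count came from the bases outside.

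By count, COX1 ranked 1 among all genes of the table in each of the 9 libraries, and it held 38.2 to 39.9% of the counts of the 10 genes. By FPKM the order was COX1, CYTB, ND1, ND2, ND5, ND4, ND6, COX3, COX2, ATP6. The place of ND4 is uncertain, since its value over the bases outside the copies, 8784, would put it above ND2. Pooled over libraries, the ranges overlapped between CYTB and ND1, between ND5 and ND4, and between ND4 and ND6. Within single libraries, however, CYTB was above ND1 and ND5 above ND4 in 9 of 9, and ND4 above ND6 in 8 of 9. Over all libraries the complex I genes held 43.4% of the counts of the 10 genes, complex IV 39.0%, complex III 17.5% and complex V 0.0051%. The complex I share includes ND6, at 2.19 to 2.62% of the counts of the 10 genes, which may hold reads from either strand. The complex IV share was almost wholly COX1, since COX2, COX3 and ATP6 together held 0.0245%.

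**Figure D2:**
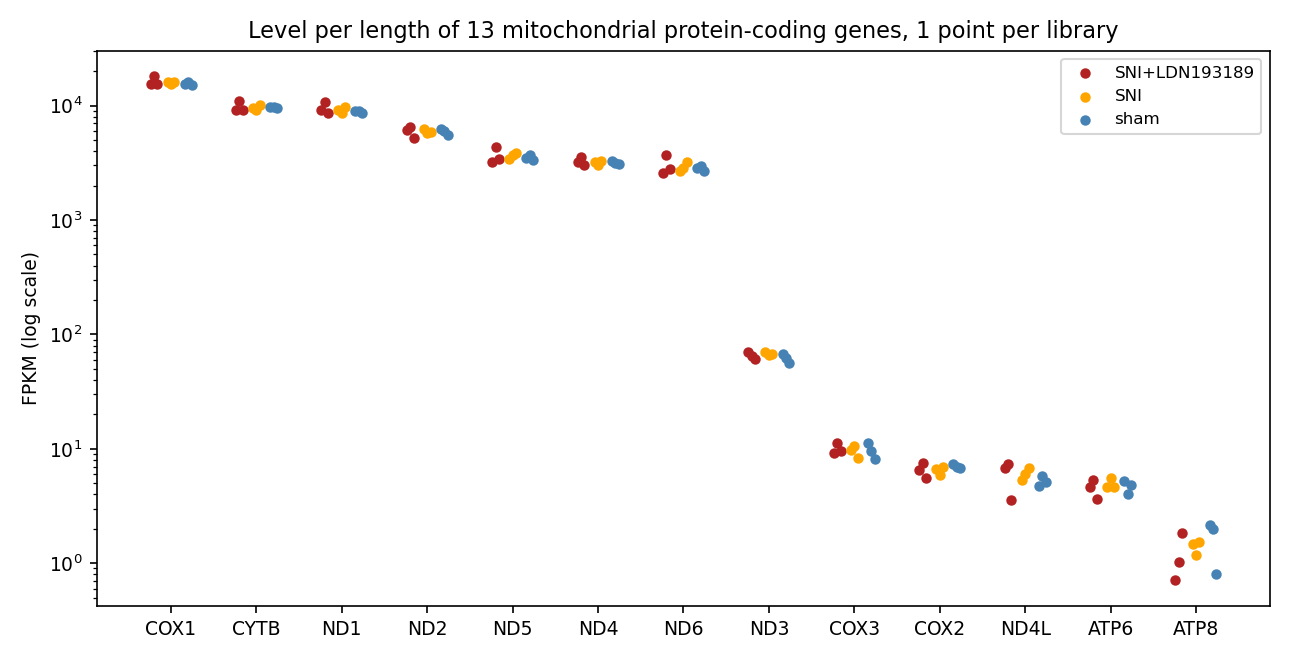
Every point is 1 library, with FPKM on a log scale for 13 mitochondrial protein-coding genes, coloured by group (SNI+LDN193189, SNI, sham). The 3 groups, set side by side, cover overlapping ranges for each of the 10 genes described, and COX1 is the highest gene at 15073 to 18164 FPKM.

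The design asks whether nerve injury, or the receptor inhibitor in injured animals, moved this RNA. As a share of all counts, the 10 genes took 6.11, 7.24 and 5.98% in SNI+LDN193189 replicates 1, 2 and 3. They took 6.28, 6.12 and 6.52% in SNI and 6.21, 6.34 and 5.99% in sham. The groups overlapped, and SNI+LDN193189 held both the highest and the lowest library. Counting error is small beside this, the widest 95% Wilson interval being 7.23 to 7.25%. Such intervals take each count as a separate draw and cover counting error only. The mean share was 6.44 ± 0.695% in SNI+LDN193189, 6.31 ± 0.198% in SNI and 6.18 ± 0.179% in sham (SD, n = 3 each). The log2 ratio of means was 0.03 for SNI+LDN193189 against SNI (two-sided exact permutation p = 1.0), 0.03 for SNI against sham (p = 0.5) and 0.06 for SNI+LDN193189 against sham (p = 0.9). With 3 libraries against 3 the lowest p possible is 0.1. An exact permutation test over all 3 groups, which can go down to 0.00357, gave p = 0.896, with 8.62% of the variation lying between groups. With a library left out, that part ran from 3.87% (without sham replicate 3) to 36.0% (without SNI+LDN193189 replicate 2, exact permutation p = 0.318), with 19.4 and 28.0% without SNI+LDN193189 replicates 1 and 3. Without SNI+LDN193189 replicate 2 the log2 ratio of SNI+LDN193189 was -0.06 against SNI and -0.03 against sham.

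**Figure D3:**
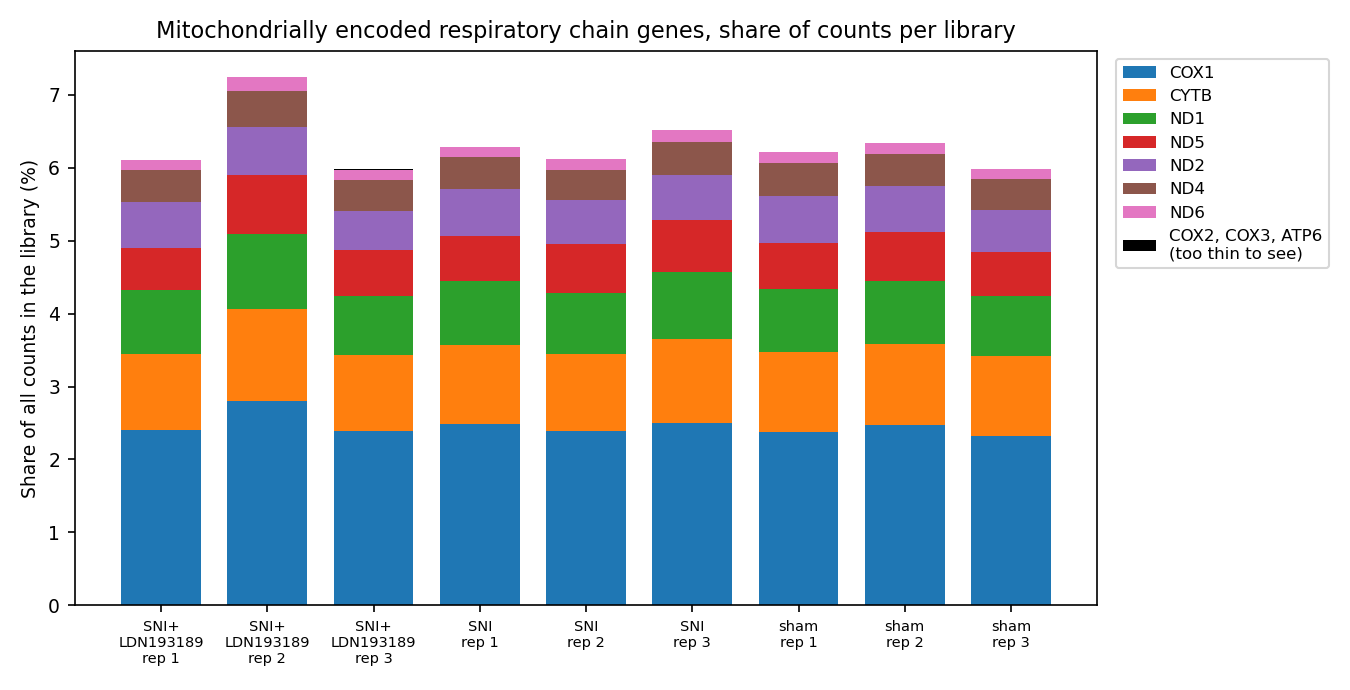
Bars give the share of all counts (percent) that the genes took in each library, stacked by gene, with SNI+LDN193189 at the left, SNI in the middle and sham at the right. SNI+LDN193189 replicate 2 reaches 7.24% and the other 8 libraries lie between 5.98 and 6.52%.

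The complex I genes are described next, with values for replicates 1, 2 and 3 in that order. ND1 (chrM:2751-3707), a subunit next to the site where ubiquinone binds, stood at 9068.5, 10853 and 8540 FPKM in SNI+LDN193189, 9102, 8688 and 9653 in SNI and 8980.2, 9015 and 8547 in sham. The groups overlapped, and SNI+LDN193189 replicate 2 was above all others. Its log2 fold change was 0.06 (SE 0.0814) in SNI+LDN193189 against SNI, 0.06 (SE 0.0814) in SNI against sham and 0.12 (SE 0.0814) in SNI+LDN193189 against sham. That value against sham was the highest of the 30 values that the 10 genes gave over the 3 comparisons, but it was 0.0036 without SNI+LDN193189 replicate 2 and 0.19 without replicate 3 of that group. ND2 (chrM:3914-4951), one of the proton-pumping subunits of the membrane arm, stood at 6098, 6450.4 and 5250.4 FPKM in SNI+LDN193189, 6191, 5763 and 5903 in SNI and 6199.9, 6046 and 5571 in sham. SNI+LDN193189 held both its highest and its lowest library. The log2 fold changes of ND2 were 0.0015, 0.013 and 0.014 in the same order of comparisons (SE 0.0770 each).

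ND4 (chrM:10167-11544), another proton-pumping subunit, stood at 3184, 3530.3 and 3046 FPKM in SNI+LDN193189, 3194, 3052 and 3298 in SNI and 3281, 3167 and 3067 in sham. The groups overlapped here as well, with log2 fold changes of 0.04, 0.01 and 0.05 (SE 0.0648 each). This was the gene with the smallest standard error of the 10. ND5 (chrM:11742-13565), the largest of the pumping subunits, stood at 3199, 4374 and 3405 FPKM in SNI+LDN193189, 3396, 3703 and 3882 in SNI and 3463, 3695 and 3346 in sham. SNI+LDN193189 held its highest and its lowest library, and the log2 fold changes were 0.0079, 0.07 and 0.08 (SE 0.109 each).

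ND6 (chrM:13552-14070) is the coding gene whose RNA comes from the other strand. Its RNA is read from the light-strand transcript, and its base composition is the mirror of the rest. It held 28.1% G and 6.0% C, while the other 9 genes held 8.0 to 16.1% G and 23.8 to 27.7% C. ND6 and ND5 run towards each other and share their last 14 bases, shown in capitals in the final 45 bases of each (chrM:13521-13565 on the plus strand and chrM:13552-13596 on the minus strand).
ND5 3' end: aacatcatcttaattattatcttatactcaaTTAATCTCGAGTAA
ND6 3' end: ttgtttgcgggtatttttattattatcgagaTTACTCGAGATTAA
The capitals of each are the reverse complement of the other's. Whether the counting used the strand was not given in the sources used here. Of protein-coding genes lying wholly inside a gene of the opposite strand, 70.3% (234 of 333) were at 0 in all libraries, against 71.2% (116 of 163) of those inside a gene of the same strand and 12.0% (1874 of 15655) of those without an overlap. Reads from ND6 and reads from the opposite strand of the same stretch therefore cannot be told apart here.

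ND6 stood at 2587, 3670.0 and 2798 FPKM in SNI+LDN193189, 2686, 2835 and 3190.4 in SNI and 2828, 2996 and 2677 in sham. The groups overlapped, with the lowest and the highest library both in SNI+LDN193189, and the log2 fold changes were 0.06, 0.04 and 0.11 (SE 0.131 each). Set against the other 9 genes, ND6 had 22.4, 27.0 and 24.8 counts per 1000 of theirs in SNI+LDN193189, 22.6, 24.6 and 26.0 in SNI and 24.1, 25.1 and 23.7 in sham. This ratio of counts, which may hold reads from either strand of the ND6 stretch, overlapped between groups too. The two-sided exact permutation p was 0.8 for SNI+LDN193189 against SNI, 1.0 for SNI against sham and 0.9 for SNI+LDN193189 against sham, and 0.95 over the 3 groups. Beside its overlapping neighbour, ND6 had 21.8 to 23.8 counts per 100 of ND5 over the 9 libraries.

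CYTB (chrM:14145-15288), the cytochrome b subunit of complex III that passes electrons from ubiquinol, was the second most abundant of the 10 genes by FPKM. It stood at 9183.5, 10988 and 9119 FPKM in SNI+LDN193189, 9444, 9243.5 and 10102 in SNI and 9692, 9726 and 9551 in sham. The groups overlapped. The sham libraries lay close together at 9656 ± 92.5 FPKM, beside 9763 ± 1061 in SNI+LDN193189 and 9596 ± 449 in SNI (SD, n = 3 each). The log2 fold change was 0.03 in SNI+LDN193189 against SNI, 0.0004 in SNI against sham and 0.03 in SNI+LDN193189 against sham (SE 0.0735 each).

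COX1 (chrM:5328-6872), the subunit of complex IV in which oxygen is reduced, stood at 15566, 18164 and 15465 FPKM in SNI+LDN193189, 16137, 15513 and 16184 in SNI and 15362, 16010.0 and 15073 in sham. All 3 groups overlapped, and the order of their means, 16399 ± 1530 in SNI+LDN193189, 15945 ± 374 in SNI and 15482 ± 480.0 in sham, changed without replicate 2 of SNI+LDN193189. The log2 fold changes were 0.05, 0.05 and 0.10 (SE 0.0730 each), and without SNI+LDN193189 replicate 2 that against SNI was -0.04 and that against sham 0.01. COX2 (chrM:7013-7696), which takes electrons from cytochrome c, had counts of 156, 175 and 134 in SNI+LDN193189, 152, 151 and 170 in SNI and 186, 164 and 170 in sham. COX3 (chrM:8607-9390), a core subunit without a redox centre, had counts of 253, 297 and 261, of 256, 307 and 232, and of 323, 261 and 234 in the same order of groups. For both genes the groups overlapped. The log2 fold changes were 0.02 (SE 0.165), -0.10 (SE 0.164) and -0.09 (SE 0.164) for COX2, and 0.07 (SE 0.155), -0.0094 (SE 0.155) and 0.06 (SE 0.154) for COX3.

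ATP6 (chrM:7927-8607), the ATP synthase subunit that forms the proton path, shares 43 bases with ATP8 and 1 with COX3, whose transcripts run on the same strand. It had counts of 110, 122 and 86 in SNI+LDN193189, 106, 141 and 113 in SNI and 132, 96 and 119 in sham. The groups overlapped. The log2 fold change was -0.13 (SE 0.200) in SNI+LDN193189 against SNI, 0.09 (SE 0.199) in SNI against sham and -0.05 (SE 0.200) in SNI+LDN193189 against sham.

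None of the 10 genes passed the threshold in any comparison. The edgeR quasi-likelihood test with Benjamini-Hochberg adjustment over 18245 genes called 0 of them at an adjusted p under 0.05. It called 0.00548% of all genes in SNI+LDN193189 against SNI, 0% in SNI against sham and 0.0164% in SNI+LDN193189 against sham. At an unadjusted p under 0.05 the count was also 0 of 10 in each comparison, and DESeq2, which called 0.0329, 0.121 and 0.4% of all genes in that order, called 0 of 10. The lowest adjusted p among the 10 from edgeR was 0.9996, 0.981 and 0.712 in the same order. In the joint edgeR test of the 3 groups, which called 0.00548% of all genes, 0 of 10 passed and the lowest adjusted p was 0.917. The ranges of 2 groups were apart for 0 of the 10 genes, beside 11.4% of all genes in SNI+LDN193189 against SNI, 9.3% in SNI against sham and 13.6% in SNI+LDN193189 against sham.

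The intervals give the size of change that these libraries leave possible. For the 7 abundant genes the 95% intervals of the log2 fold change reached from -0.24 to 0.37 in SNI+LDN193189 against SNI, from -0.26 to 0.34 in SNI against sham and from -0.19 to 0.41 in SNI+LDN193189 against sham. With COX2, COX3 and ATP6 included they reached from -0.56 to 0.40, from -0.45 to 0.51 and from -0.47 to 0.41. The fitted values were positive for 9 of 10 genes in SNI+LDN193189 against SNI, for 8 in SNI against sham and for 8 in SNI+LDN193189 against sham. The medians were 0.04, 0.03 and 0.06, beside -0.0007, 0.0005 and -0.0069 over all genes tested. The 10 genes share precursors and libraries and the comparisons share groups, so these counts are not independent. Without SNI+LDN193189 replicate 2 alone, 15 of the 30 values changed sign. The 30 include the 10 values of SNI against sham, which hold no library of that group and move only through the shared fit.

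**Figure D4:**
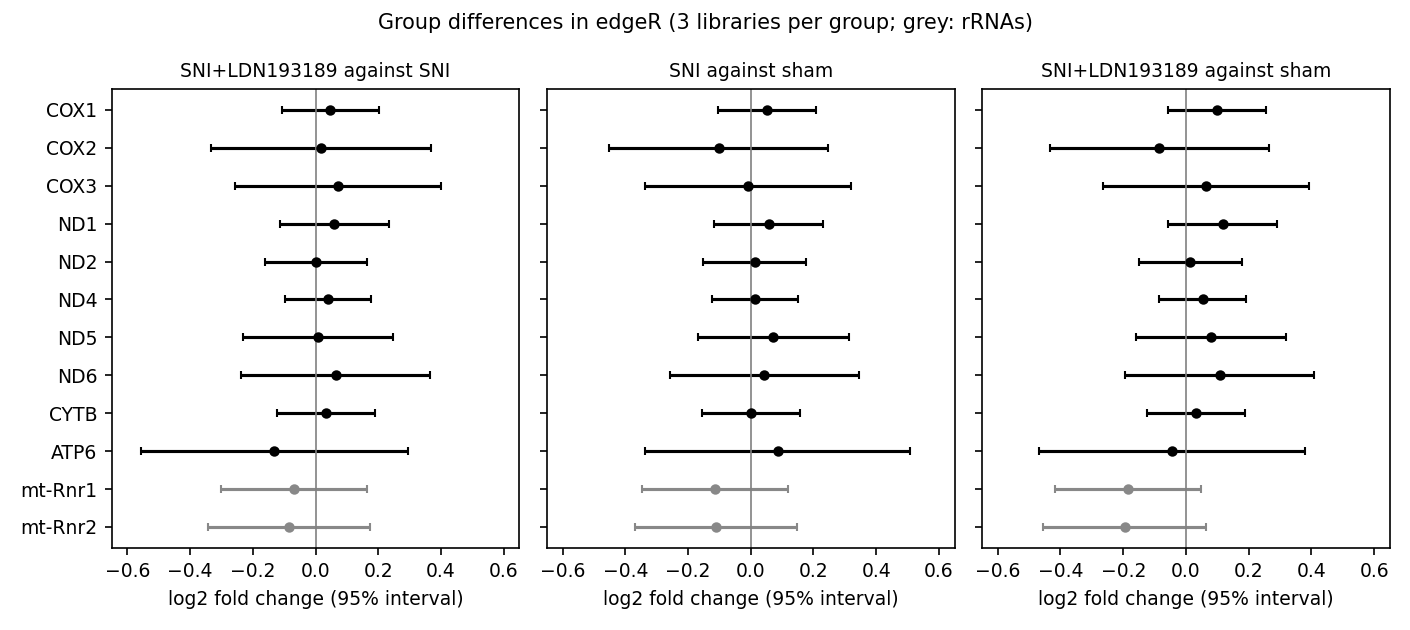
Points are log2 fold changes from edgeR with 95% intervals, in panels for SNI+LDN193189 against SNI, SNI against sham and SNI+LDN193189 against sham, with the 10 genes in black and the 2 mitochondrial rRNAs in grey. Every interval includes 0, and the widest are those of ATP6, COX2 and COX3.

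SNI+LDN193189 replicate 2 stood apart from the other libraries in these genes. It was the highest library for 8 of the 10, and for all 10 it lay above the mean of the other 8 libraries, by 9.74% for ND2 up to 29.9% for ND6. The exceptions were COX3, highest in sham replicate 1, and ATP6, highest in SNI replicate 2. In COX1 it held 28045 CPM, while the others held 23272 to 24988. Replicate 3 of the same group was the lowest library for 6 of the 10 genes. The mitochondrial rRNAs did not follow. In SNI+LDN193189 replicate 2 mt-Rnr1 stood at -10.0% and mt-Rnr2 at -8.23% relative to the mean of the other 8 libraries.

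**Figure D5:**
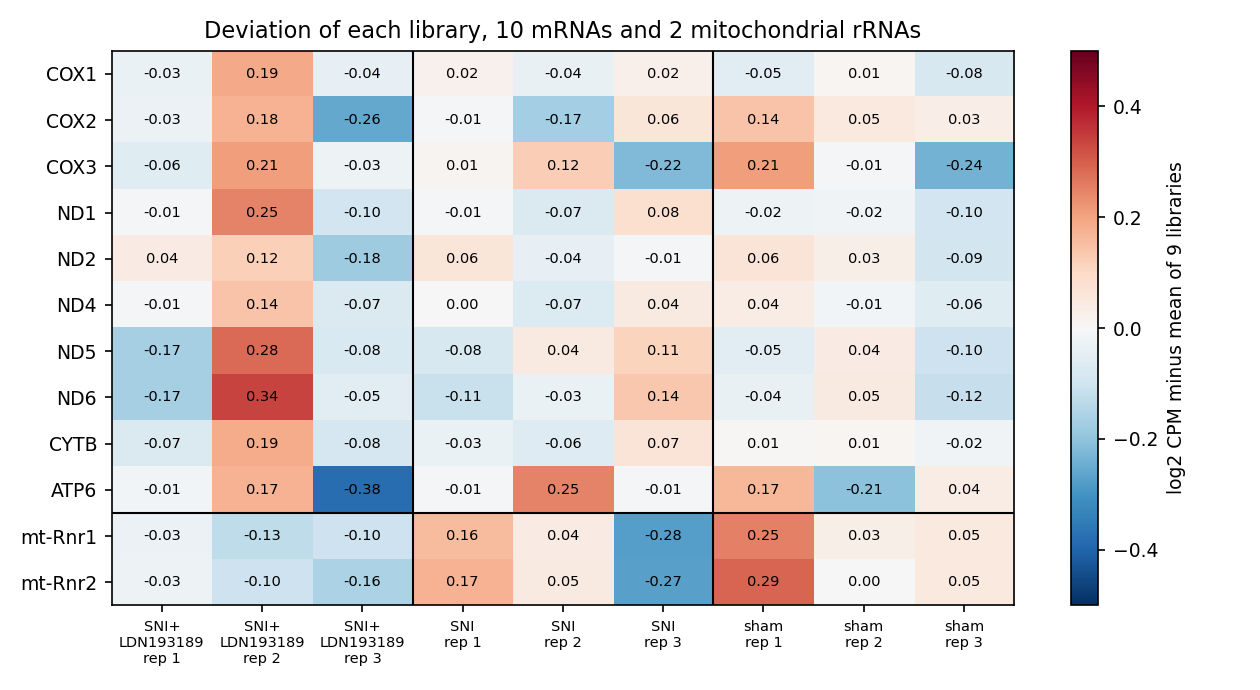
Each cell gives log2 CPM minus the mean of the 9 libraries, for 10 genes and, below the line, the 2 mitochondrial rRNAs; red is above and blue below the mean. The column of SNI+LDN193189 replicate 2 is above the mean for all 10 genes (0.12 to 0.34) and below it for both rRNAs.

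The rRNAs, which are cut from the same heavy-strand precursor and lie ahead of ND1, took 0.758, 0.714 and 0.703% of all counts in SNI+LDN193189, 0.867, 0.796 and 0.639% in SNI and 0.935, 0.777 and 0.799% in sham. SNI+LDN193189 and sham did not overlap. That held for mt-Rnr1 and mt-Rnr2 each, beside 13.6% of all genes in that comparison. Their log2 fold changes were -0.18 (SE 0.105) and -0.20 (SE 0.116), with edgeR quasi-likelihood adjusted p-values (Benjamini-Hochberg) of 0.657 and 0.667, so neither passed. Without sham replicate 1, the library with the most rRNA and the most skeletal muscle RNA, they were -0.12 and -0.11. Without sham replicate 2 they were -0.21 and -0.24. Per 100 counts of the 10 genes the rRNAs had 11.3 ± 1.32 counts in SNI+LDN193189, 12.2 ± 2.12 in SNI and 13.6 ± 1.41 in sham (SD, n = 3 each). Mitochondrial rRNAs carry short tails at most, so after selection for poly(A) these levels need not follow the rRNA of the tissue.

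Genes that serve mitochondrial RNA and DNA were read from the same fit. Of 34 genes for mitochondrial transcription and RNA handling, 32 were tested and 0 passed in either direction in any of the 3 comparisons. Their median log2 fold change was 0.03 in SNI+LDN193189 against SNI, 0.0043 in SNI against sham and 0.07 in SNI+LDN193189 against sham. Fastkd5 and Mrm2 were listed at 0, which need not mean absent RNA. Polrmt, the RNA polymerase of mitochondria, averaged 20.1 ± 1.14 CPM in SNI+LDN193189, 19.7 ± 1.41 in SNI and 18.6 ± 1.21 in sham (SD, n = 3 each). Tfam, which packs the DNA and helps start transcription, averaged 52.6 ± 2.60, 50.5 ± 2.37 and 48.9 ± 2.17 CPM in the same order. Lrpprc, which with Slirp keeps the coding RNAs stable, averaged 107 ± 3.00, 107 ± 1.24 and 103 ± 6.34 CPM. Slirp itself had log2 fold changes of 0.16, -0.0048 and 0.15, and Mtpap, the mitochondrial poly(A) polymerase, of -0.00035, -0.07 and -0.07. Elac2, which cuts the 3' ends of tRNAs out of the precursors, had the smallest joint p of the list and averaged 35.3 ± 1.64, 31.8 ± 0.775 and 30.7 ± 0.478 CPM. Its edgeR quasi-likelihood adjusted p (Benjamini-Hochberg) for SNI+LDN193189 against sham was 0.425. Tbrg4, Grsf1 and Pnpt1, named with it by the same rule, had log2 fold changes of 0.13, 0.12 and 0.10 in that comparison.

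Of 16 genes for maintenance of mitochondrial DNA 0 passed, with medians of -0.01, 0.02 and 0.01 in the same order of comparisons. Slc25a33, a carrier that brings pyrimidine nucleotides into mitochondria, averaged 60.2 ± 1.44 CPM in SNI+LDN193189, 57.0 ± 4.21 in SNI and 50.1 ± 0.835 in sham. Its log2 fold change against sham was 0.28 (SE 0.0584) for SNI+LDN193189, with an edgeR quasi-likelihood adjusted p (Benjamini-Hochberg) of 0.201. Tk2, a thymidine kinase, Atad3a and the helicase gene Twnk had 0.18, 0.14 and -0.22 in that comparison. Of 31 nuclear-encoded subunits of the same complexes 0 passed, with medians of 0.03, 0.05 and 0.09, and 24, 25 and 28 of them were positive. Their summed level was 6408 to 6470 CPM in SNI+LDN193189, 6233 to 6458 in SNI and 6088 to 6262 in sham. That sum did not overlap between SNI+LDN193189 and sham, in a comparison where 13.6% of all single genes were apart. The 13.6% is of single genes and so is not a like measure for a sum over a list. Cox6a1 and Cox4i1, nuclear partners of COX1 in complex IV, had log2 fold changes of 0.21 (SE 0.0548) and 0.12 (SE 0.0490) in SNI+LDN193189 against sham. Uqcrq of complex III and Ndufb8 of complex I had 0.13 each. These 4 were named because they had the smallest joint p of the list in these data. Their edgeR quasi-likelihood adjusted p-values (Benjamini-Hochberg) in that comparison were 0.353 for Cox6a1 and 0.547 to 0.565 for the rest. Of 20 genes for mitochondrial biogenesis and content 0 passed, with medians of 0.01, 0.03 and 0.07. Their sum was also apart between those groups, at 2525 to 2562 CPM in SNI+LDN193189 and 2421 to 2470 in sham. The sums of the lists for transcription and RNA handling and for DNA maintenance overlapped between those groups. They were 1016 to 1040 and 513 to 525 CPM in SNI+LDN193189, and 963 to 1025 and 497 to 520 in sham. Gabpb1, Lonp1, Pprc1 and Phb2 had log2 fold changes of -0.20, 0.09, 0.17 and 0.17 in SNI+LDN193189 against sham.

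As a description of likeness, the mean log2 CPM of the 10 genes was set beside that of 12109 other genes over the 9 libraries, which share depth and preparation. That mean gave each of the 10 the same weight, so the uncertain counts of COX2, COX3 and ATP6 weighed as much as those of COX1. The genes with the most similar pattern were Usp7 (r = 0.94), Rasgrf1 (r = 0.92), Esf1 (r = 0.89), Nim1k (r = 0.89) and Heph (r = 0.88). Usp7, a deubiquitinase gene, ran from 166 to 177 CPM and was highest in SNI+LDN193189 replicate 2. Rasgrf1 stood at 706 CPM in that library and at most 548 elsewhere, and Nim1k at 25.9 and at most 18.8, so the r of both leans on 1 library. The mean log2 CPM of the 10 genes was itself highest in that library, at 9.79 against at most 9.63 elsewhere. The genes named are the extremes of 12109 correlations over 9 libraries. The most opposite were Idua (r = -0.96), Sirt2 (r = -0.94) and Akr7a5 (r = -0.94), and Idua, a lysosomal enzyme gene, was lowest in that library at 7.99 CPM and at most 10.4 elsewhere.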

How the data were processed

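The authors deposited a table of whole-number read counts and a table of FPKM values for the same 40879 symbols, with a column per library; per the labels, RNA was poly(A)-selected and read as 150-base pairs, and per the submitters' processing notes the build was mm10. The sources used here name no aligner, counter or annotation. The deposited FPKM of each mitochondrial row was its count per library total and per length, with a length 1 base under the annotated one. In each library 70.7 to 71.8% of the counts above 0 were even. Totals were 33432776 to 37190467 counts, which sets the precision of a share in a library. Intervals of shares cover counting error only and take each count as a separate draw. Counts that are so often even over all genes may not be separate draws, so these intervals may be too narrow.

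The members and the gene lists were chosen with earlier results of these data known. Groups come from the labels, and the columns were matched by the letters L, N and S. Counts were tested with edgeR 4.0.16 in R 4.3.3 (filterByExpr, TMM factors of 0.984 to 1.02, robust quasi-likelihood F test, 6 residual degrees of freedom, Benjamini-Hochberg adjustment over 18245 genes, called under 0.05), with all 9 libraries in 1 fit, and the fit was tested on simulated data. Shares and the ND6 ratio were compared by exact permutation over libraries. Mitochondrial transcripts of GENCODE M21 (GRCm38) were searched against all its transcripts with BLAST 2.17.0 at an identity of at least 90%, which is also the source of the printed sequences; copies at 99% or more count as near-identical. Python 3.11.15 was used for tables and figures.

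The rule for named genes took all 10 members, in each pathway list the genes past the threshold or otherwise the 4 with the smallest joint p, 5 transcription genes fixed by name, and the 5 most and 3 least similar genes with a mean of at least 5 CPM. Alternatives comprised DESeq2 1.42.0, limma 3.58.1 (voom, and log2(FPKM + 0.1) or log2(FPKM + 1)), other scalings, no filter on low counts, a replicate block, only the groups compared, and leaving out each library. Same-numbered SNI and sham libraries deviated together over 12116 genes (r = 0.157, 0.180 and 0.326). Some libraries of unlike number did so too, such as sham replicate 3 and SNI+LDN193189 replicate 1 (r = 0.318). The labels give no shared animal or day, so whether the numbers pair any libraries is not known.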

Additional observations from a re-analysis of the deposited data

How the results depend on the processing

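With so few calls among all genes, a count of 0 of 10 says little of stability, but all 10 genes missed the threshold in each comparison and in the joint test under each alternative run. The sign of the fold change was less fixed: of 30 log2 fold changes, 4 changed sign under a setting other than leaving out a library (19 values), and 24 did so when some library was left out. The cause was not tested.

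CYTB in SNI against sham became -0.00105 with DESeq2 and with DESeq2 size factors, -0.00905 with library totals, -0.00997 and -0.00996 with limma on log2(FPKM + 0.1) and log2(FPKM + 1), and -0.00141 with only those groups. In SNI+LDN193189 against SNI, ND2 became -0.00477 with library totals, -0.00312 with limma-voom, -0.00946 and -0.00945 with limma on FPKM and -0.00351 with the replicate block. ND5 there became -0.00034, -0.0055, -0.0116 and -0.0116, and -0.0046 with the replicate block. ND2 in SNI+LDN193189 against sham became -0.0016 with library totals and -0.0054 with limma on FPKM at either pseudocount. The block changed no other direction and no call among the 10 genes. Same-numbered libraries did not deviate together between SNI+LDN193189 and SNI (r from -0.125 to 0.0945) or SNI+LDN193189 and sham (-0.286 to 0.000749), so the block has no basis there. For SNI and sham its only basis is the correlation of same-numbered libraries, which cannot settle a pairing.

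With each library left out in turn, values that changed sign ran as follows on the log2 scale. In SNI+LDN193189 against SNI they ran from -0.062 to 0.082 for the share of counts, from -0.046 to 0.087 for ND6 relative to the other genes, from -0.038 to 0.089 for COX1, from -0.10 to 0.12 for COX2, from -0.027 to 0.15 for COX3, from -0.054 to 0.13 for ND1, from -0.069 to 0.083 for ND2, from -0.029 to 0.085 for ND4, from -0.15 to 0.099 for ND5, from -0.11 to 0.17 for ND6, from -0.067 to 0.0799 for CYTB and from -0.27 to 0.0076 for ATP6. In SNI against sham they ran from -0.044 to 0.056 for ND6 relative to the other genes, from -0.13 to 0.10 for COX3, from -0.044 to 0.043 for ND2, from -0.023 to 0.0399 for ND4, from -0.018 to 0.10 for ND6, from -0.027 to 0.024 for CYTB and from -0.0094 to 0.17 for ATP6. In SNI+LDN193189 against sham they ran from -0.032 to 0.11 for the share of counts, from -0.043 to 0.0901 for ND6 relative to the other genes, from -0.20 to 0.017 for COX2, from -0.055 to 0.17 for COX3, from -0.055 to 0.094 for ND2, from -0.015 to 0.097 for ND4, from -0.074 to 0.17 for ND5, from -0.064 to 0.21 for ND6, from -0.066 to 0.078 for CYTB and from -0.18 to 0.092 for ATP6. SNI+LDN193189 replicate 2 turned the most, 15 of the 30, and sham replicate 3 and SNI replicate 3 turned 6 each. The 30 include the values of SNI against sham, which hold no library of SNI+LDN193189. The part of the variation between groups in the ND6 ratio, 1.29%, ran from 0.55% without SNI+LDN193189 replicate 3 to 27.7% without SNI+LDN193189 replicate 1.

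Counts of calls over all genes moved with the setting. edgeR called 1, 0 and 3 genes (SNI+LDN193189 against SNI, SNI against sham, SNI+LDN193189 against sham), with 708, 972 and 1561 at an unadjusted p under 0.05. DESeq2 called 6, 22 and 73, limma-voom 0, 0 and 1, limma on FPKM 0, 0 and 1, edgeR without a filter 2, 0 and 30, with the block 0, 0 and 4, and with only the groups compared 3, 0 and 3. Leaving out a library gave 0 to 2, 0 to 38 (38 without sham replicate 1) and 1 to 17 (17 without SNI replicate 3); the joint test called 1 gene, 25 without a filter, 5 with the block and 1 to 19 with a library left out (19 without sham replicate 1). The alternatives of the joint test, and of leaving out libraries in the tests over 3 groups, were chosen after seeing the data. COX2, COX3 and ATP6 rest on 86 to 323 counts per library.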
